A study of Mus musculus with 8 samples.

Results

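B4 is a family of short interspersed elements (SINEs) of rodent genomes. The rows of the deposited table with the repeat class SINE and the family B4 were taken as members, which gave 352441 genomic copies of 4835895 regions in the table, or 25.2% of its 1400160 SINE copies. The members fell into 4 subfamilies by the table's annotation, namely RSINE1 with 104208 copies, ID_B1 with 103992, B4A with 89131 and a subfamily that is itself named B4 with 55110. Below, B4 family means all of these copies and B4 subfamily means the last group alone. The choice used only the annotation and no measured value.

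Accessibility was measured by ATAC-seq, in which a transposase cuts nuclear DNA where chromatin is open, in primary lung fibroblasts of the mouse. Of the 8 libraries, 4 were labelled cGAS KO (knockout, KO) and 4 wild type (WT), each genotype with 2 female and 2 male labels. The labels used here do not say whether each library stands for 1 animal. Libraries were taken as the replicates. All cells were grown at 5% CO2 and 5% O2 in medium with 15% FBS, per the labels' protocols. Strain, age, the allele of the knockout and the passage of the cells are not given in the sources used here, and marker genes of the cell type and the Cgas locus itself were not analysed here. cGAS is the enzyme that detects DNA in the cytosol and triggers interferon signalling. Libraries are named by genotype, sex label and number, as in KO F1 and WT M2.

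SINEs are short retrotransposons that encode no protein. They are transcribed by RNA polymerase III from a promoter inside the element and are copied by the enzymes of long interspersed elements (LINEs). B4 elements are known as composites that join a part like the tRNA-derived ID element to a part like B1, the rodent relative of human Alu, and ID_B1 carries that make-up in its name. RSINE1 is a rodent SINE that the annotation places in the same family.

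The table summed to 43.2 to 72.9 M (1e6) estimated counts per library, of which 1.09 to 1.47 M lay in B4 family copies. Accessible regions called by the authors, named open regions here, held 64.6 to 76.4% of a library's counts, with KO M2 lowest and WT M1 highest. Retrotransposons held 20.4 to 30.8%, with KO M2 highest and WT M1 lowest. The library labelled KO F2 went against its sex label. Per 10000 B4 counts on autosomes, B4 copies on the Y chromosome held 8.80 counts in KO F2, 0.398, 0.329 and 0.418 in the other female-labelled libraries and 7.70 to 18.6 in the male-labelled ones. The main genotype and sex-label values below are therefore also given without that library. Across genotypes, the deviations of open regions from their genotype means also set the libraries apart in 2 sets that each hold both genotypes. The KO libraries F1 and M1 were correlated with WT M2 and WT F1 at 0.27 to 0.61, and KO F2 and KO M2 with WT M1 and WT F2 at 0.36 to 0.63. All 8 pairs of a KO and a WT library across the sets lay between -0.65 and -0.31. The sets were read from these same correlations, and the deviations within a genotype sum to 0. The negative values across the sets are therefore partly built in. The labels used here give no batch that follows this split, and its part in the values below was not tested.

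The subfamilies differed in length and in completeness. The median copy spanned 153 bp in the family, 237 bp in B4A, 221 bp in the B4 subfamily, 138 bp in RSINE1 and 136 bp in ID_B1. Copies annotated in more than 1 piece made up 11.8% of the B4 subfamily and 10.6% of B4A, against 4.10% of RSINE1 and 3.68% of ID_B1. Together the copies covered 58.2 Mb. Density per chromosome ran from 184 copies per Mb on chromosome 11 and 180.0 on chromosome 9 to 89.8 on X and 32.2 on Y. Chromosome 11 was also the densest in open regions, with 97.0 per Mb, and X held 25.3. On Y the largest subfamily was B4A at 18.1 copies per Mb, followed by ID_B1 at 7.50, RSINE1 at 4.29 and the B4 subfamily at 2.33.

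Few B4 copies lay in open chromatin. An overlap of at least 1 bp with an open region was found for 15685 copies, or 4.45%. ID_B1 had the highest share of the subfamilies at 5.11%, followed by the B4 subfamily at 4.49%, B4A at 4.18% and RSINE1 at 4.00%. For comparison the share was 3.90% in the Alu family (B1 elements), 4.28% in B2, 5.13% in ID and 8.04% in MIR, an old SINE family of mammals. When an overlap of at least 50 bp was required the family share was 3.48%, and the order of the subfamilies was the same, with 3.82% for ID_B1 and 3.15% for RSINE1. These shares are counts over the genome with no replicate, since the open regions were given once for all libraries, and are not tested. Over the family the share did not rise steadily with copy length. It was 3.63% for copies of up to 50 bp and 4.38% for copies of over 50 and up to 100 bp. It was 5.10% for copies of over 200 and up to 250 bp and 4.29% for longer ones. In ID_B1 the share did rise from each length class to the next, from 3.77% up to 50 bp to 5.75% at over 200 and up to 250 bp. The 271 longer ID_B1 copies had 4.80%. No other subfamily rose at every step.

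B4 sequence was thinner at the centres of open regions than around them. Over 185115 open regions, B4 copies covered 1.33% of bases within 100 bp of the centre and 3.22% of bases 2000 to 3000 bp away, a ratio of 0.414. The ratio was 0.468 for the B4 subfamily, 0.440 for B4A, 0.391 for RSINE1 and 0.374 for ID_B1. ID_B1 thus had the lowest ratio at the centre and, as given above, the highest share of copies that overlap an open region. At 500 to 1000 bp from the centre the family ratio was 1.04. Among other SINE families the ratio at the centre was 0.262 for Alu, 0.519 for ID, 0.595 for B2 and 0.908 for MIR, so B4 lay between Alu and ID. B2 cover had a small peak at the centre itself, a shape that no B4 subfamily showed in the plot.

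**Figure D1:**
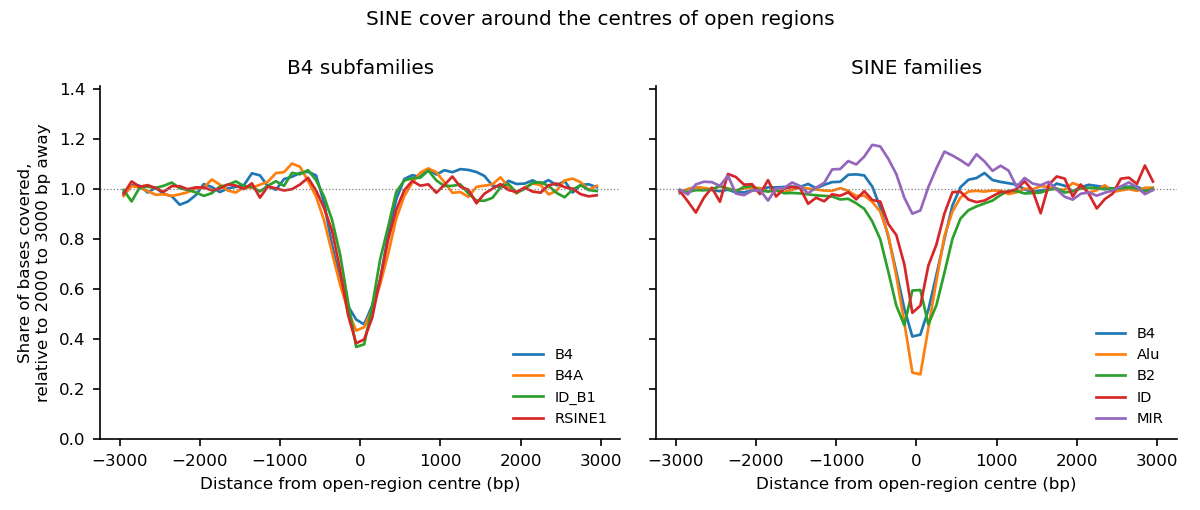
Share of bases covered by SINE copies in bins of 100 bp around the centres of 185115 open regions, relative to the mean 2000 to 3000 bp away (dotted line at 1). Left, the 4 B4 subfamilies, which all dip at the centre to between 0.374 and 0.468 within 100 bp. Right, the B4 family with the Alu, B2, ID and MIR families.

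Counts were spread thinly over the copies. The median B4 copy had 2.12 counts per library, and 3761 copies had no count in any library. The 3524 most counted copies, 1 in 100, held 14.7% of all B4 counts, and 69.2% of them overlapped an open region. Copies in open regions held 22.2% of the B4 counts. That share ranged from 17.4% in KO M2 to 26.2% in KO M1. A read end that lies in a copy and in an open region was split between them, so a copy inside a region shows only part of the signal there.

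Per kb of copy, B4 copies in open regions carried 1.84 ± 0.109 CPM (counts per 1e6 counts of the table; mean ± SD, n = 8 libraries) and copies outside them 0.312 ± 0.0457. Outside open regions the level per kb was highest in ID_B1 at 0.348 ± 0.0456, then RSINE1 at 0.322 ± 0.0484, the B4 subfamily at 0.297 ± 0.0443 and B4A at 0.287 ± 0.0450 CPM per kb. Within each library the order was the same: ID_B1 was above RSINE1 in 8 of 8 libraries, by 1.08 times on average (1.06 to 1.13), and the B4 subfamily was above B4A in 8 of 8, by 1.04 times (1.02 to 1.05). Between libraries the levels overlapped, and only the paired comparison separates the subfamilies. Outside open regions the median distance to the nearest region rose in the same order as these levels fell. It was 2961 bp in ID_B1, 3533 bp in RSINE1, 4019 bp in the B4 subfamily and 4381 bp in B4A. The part of distance in the order of levels was not tested. Without KO F2 the family levels were 1.84 ± 0.116 CPM per kb in open regions and 0.310 ± 0.0487 outside (n = 7).

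In open regions the order was another one. RSINE1 stood highest at 2.02 ± 0.0981 CPM per kb, then ID_B1 at 1.89 ± 0.104, the B4 subfamily at 1.78 ± 0.149 and B4A at 1.70 ± 0.116. ID_B1 was below RSINE1 in 8 of 8 libraries, at 0.936 times its level (0.900 to 0.963), so that these subfamilies exchanged places between the sets of copies. A copy was placed in this set by any overlap with an open region, while its level was taken over its whole length. Bases of a copy that lie outside the region thus enter its level, and the subfamilies differ in length. The part of this in the order within open regions was not tested. The B4 subfamily was below ID_B1 in all libraries but 1 (exact permutation test of signs, two-sided, p = 0.0156, adjusted 0.0164). For every other pair of subfamilies, in either set, the two-sided exact permutation test of signs over 8 libraries gave p = 0.00781, the smallest it can give, and 0.00919 after Benjamini-Hochberg adjustment over the 20 level comparisons made, which also included other SINE families. Against those families the B4 family had 0.901 times the level of Alu outside open regions (0.886 to 0.919) and 0.849 times that of B2 (0.744 to 0.967). The ratio to B2 thus moved more from library to library than the ratio to Alu.

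**Figure D2:**
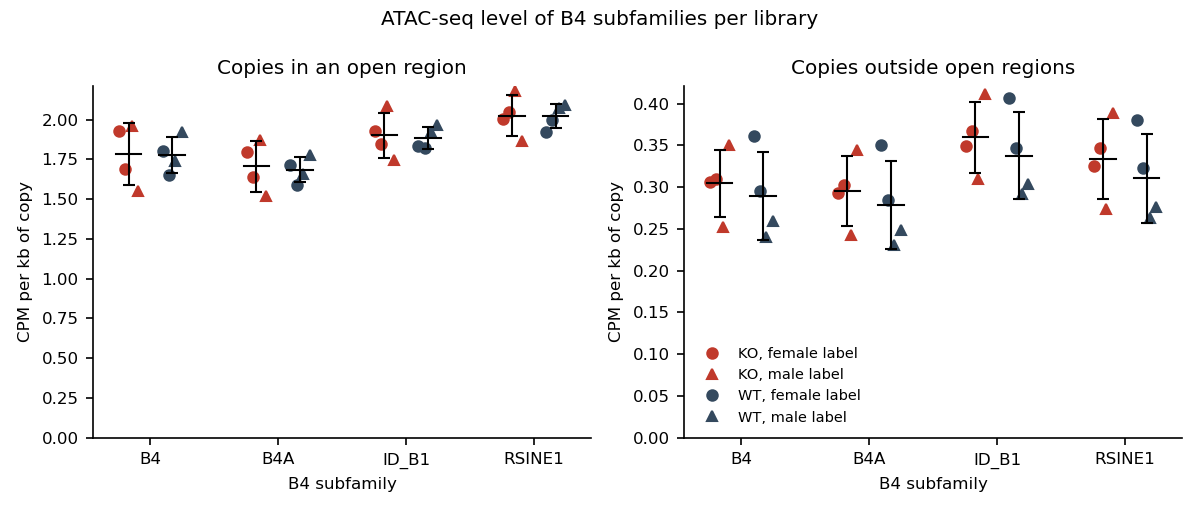
ATAC-seq level of each B4 subfamily in CPM per kb of copy, for copies in an open region (left) and outside (right). Each point is 1 library, red for KO and dark blue for WT, circles for female and triangles for male labels; bars show mean ± SD of 4 libraries. KO and WT libraries overlap in every subfamily, and RSINE1 is highest on the left while ID_B1 is highest on the right.

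The level of B4 copies fell off with distance to the nearest open region. It was 1.84 ± 0.109 CPM per kb for copies in a region (mean ± SD, n = 8), 0.673 ± 0.0415 for the 36249 copies under 500 bp away, 0.387 ± 0.0507 from 500 bp, 0.278 ± 0.0483 from 2000 bp, 0.189 ± 0.0447 from 10000 bp and 0.115 ± 0.0405 for the 31911 copies at 50000 bp or more. Every library followed this order. The libraries also spread apart with distance. In open regions the highest library had 1.21 times the level of the lowest, and at 50000 bp or more 2.85 times, from 0.0607 in WT M1 to 0.173 CPM per kb in WT F1. The libraries with the smallest share of counts in open regions, KO M2 and WT F1, had the highest levels there, and the part of that share in the spread was not tested. KO and WT did not separate at any distance: the two-sided exact permutation test over 70 assignments gave p from 0.229 to 0.943 in the 6 distance classes, before any adjustment. Without KO F2 the level was 1.84 ± 0.116 CPM per kb in open regions and 0.115 ± 0.0437 at 50000 bp or more (n = 7). The subfamilies lay closest at 10000 to 50000 bp, where the highest had 1.03 times the level of the lowest. At 50000 bp or more that ratio was 1.14, and the order differed from that near open regions, with 0.125 in the B4 subfamily, 0.119 in RSINE1, 0.111 in ID_B1 and 0.110 CPM per kb in B4A. The B4 subfamily was above RSINE1 in 8 of 8 libraries there, above ID_B1 in 8 and above B4A in 8. ID_B1 was above B4A in 3 of 8.

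**Figure D3:**
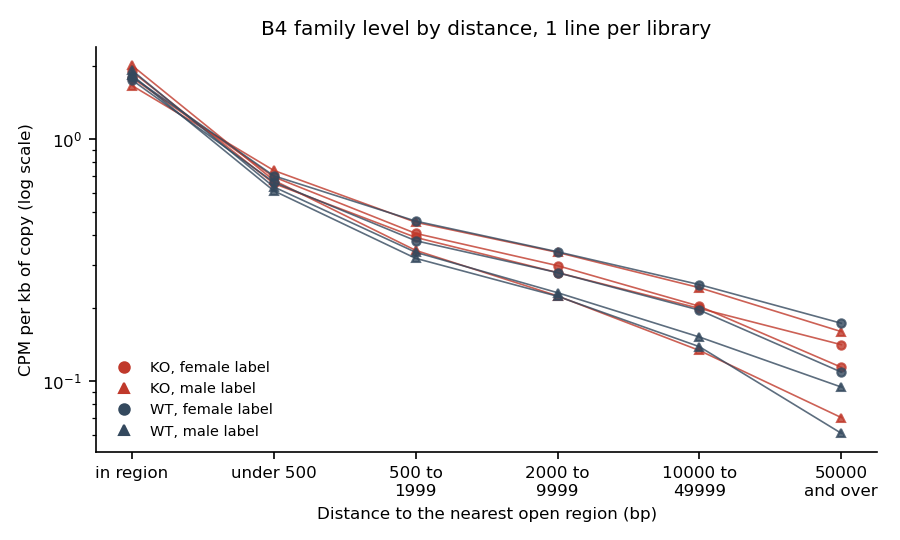
Level of the B4 family in CPM per kb of copy (log scale) by distance to the nearest open region, 1 line per library, red for KO and dark blue for WT, circles for female and triangles for male labels. All 8 lines fall with distance, and they fan out from 1.21-fold to 2.85-fold between the highest and the lowest library.

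Seen from the open regions, 14660 of 185268, or 7.91%, held a B4 copy. Of these 93.2% held a single copy, and the copy or copies covered a median of 17.6% of the region. B4 covered over 50% of the region in 1062 cases. In 4333 regions the B4 copy was the only annotated repeat. The most common partners were simple repeats, in 29.7% of B4-holding regions, Alu copies in 22.5%, ERVL-MaLR long terminal repeats in 13.2% and B2 copies in 12.6%. B4-only regions had a median of 2.15 CPM, against 2.22 in the 70433 regions without any repeat. At matched length the B4-only regions were lower than regions without a repeat in each class, for example 4.01 against 4.55 CPM per kb for regions of over 400 and up to 600 bp. Regions with other repeats only were lower still in that class, at 3.53 CPM per kb, and in 4 of the 5 length classes in all. The exception was the class of over 1000 bp, with 10.4 in B4-only regions and 10.9 in those with other repeats only. Regions covered by B4 over more than 50% of their length were short and weak, with a median of 335 bp and 0.723 CPM. These medians are a description over regions, and the splitting of reads between a region and its repeats lowers the count of any region that holds one.

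The series compares cGAS KO with WT cells. For the sum over the copies of each subfamily, no B4 subfamily differed between genotypes. In CPM (TMM-scaled), RSINE1 had 5319, 5516, 5233 and 5736 in the KO libraries F1, F2, M1 and M2 and 5383, 5282, 5095 and 5230.4 in the WT libraries in the same order. ID_B1 had 6170.3, 6230.1, 6333 and 6492 in KO and 6172, 6045, 6051 and 6170.5 in WT. KO M2 was the highest library of both, and WT M1 was the lowest of RSINE1. B4A had 6692, 6609, 6447 and 6983 in KO and 6869, 6357, 6126 and 6503 in WT. The B4 subfamily had 4087, 3928, 3912 and 4110.1 in KO and 4119, 3835, 3729 and 3995 in WT. The groups overlapped in all 4 subfamilies, and in each the genotype means lay within a few percent of each other.

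The log2 fold of KO over WT was 0.06 ± 0.05 (SE) for RSINE1, 0.05 ± 0.06 for B4A, 0.05 ± 0.05 for ID_B1 and 0.03 ± 0.06 for the B4 subfamily. The 95% intervals ran from 0.935-fold to 1.14-fold over the 4 subfamilies. edgeR's quasi-likelihood test, with the sex label as covariate and Benjamini-Hochberg adjustment over 831 retrotransposon subfamilies, gave an adjusted p of 0.869 for each. Of all 831 subfamilies 0.0% passed in edgeR and 0.0% in DESeq2. An unadjusted p under 0.05 was reached by 0 of the 4 B4 subfamilies and by 1.81% of all. The libraries of KO and WT did not overlap in 0 of the 4 and in 1.32% of all. The sign of the folds rested on the scaling: the median log2 fold of all subfamilies was 0.06 in this fit, 0.12 when scaled on open regions alone and -0.02 when scaled on retrotransposon copies alone, where all 4 B4 folds were below 0. Without KO F2 the median of the 4 B4 folds was 0.04, against 0.05 with it. It was 0.01 without KO M2 and 0.03 without WT M1.

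The B4 share of all retrotransposon counts does not depend on library scaling. It was 8.64, 8.72, 9.70 and 8.15% in KO F1, F2, M1 and M2 and 8.40, 8.65, 9.34 and 9.17% in the WT libraries in the same order. KO M1 was the highest and KO M2 the lowest, so that the KO libraries enclosed all WT libraries. The mean was 8.80 ± 0.649% in KO and 8.89 ± 0.438% in WT (SD, n = 4), a difference that was smaller than the spread in either group (two-sided exact permutation test over 70 assignments, p = 0.857, adjusted 0.857 over the 2 family shares). With every copy that touches an open region left out, the shares were 8.71 ± 0.738% and 8.83 ± 0.544% (exact p = 0.829, adjusted 0.857). Without KO F2 the KO mean of the share of all copies was 8.83 ± 0.792% (n = 3). The 8 shares of single subfamilies, in and outside this restriction, gave exact p from 0.657 to 0.943. The share was lowest in KO M2 and WT F1, where open regions held 64.6% and 65.1% of counts, and highest in KO M1 and WT M1, where they held 75.8% and 76.4%. The part of that difference in the B4 share was not tested.

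Within SINEs the libraries took another order. B4 copies held 28.0, 25.9, 26.9 and 26.2% of SINE counts in KO F1, F2, M1 and M2 and 27.8, 25.4, 25.4 and 27.6% in WT. The 4 libraries highest in this share were KO F1, WT F1, WT M2 and KO M1, so both genotypes stood among them and among the 4 lowest. These 4 libraries are also 1 of the 2 sets described above, with 26.9 to 28.0% against 25.4 to 26.2% in the other set. The part of that split in the share was not tested. The same 4 libraries had the highest ratios of B4 to B2 level outside open regions, where that ratio ran from 0.744 to 0.967. The ratio of B4 to Alu level ran from 0.886 to 0.919 there. B2 counts are among the SINE counts, and their part in the share was not tested. Each subfamily kept a nearly fixed part of the B4 counts in every library: B4A held 29.2 to 30.5%, ID_B1 27.4 to 28.9%, RSINE1 23.9 to 24.8% and the B4 subfamily 17.6 to 18.4%.

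Single copies could be tested for 41323 of the 352441 B4 copies (11.7%), those that passed the filter on low counts; 27.1% of them lay in an open region. None differed between genotypes in edgeR's quasi-likelihood test with Benjamini-Hochberg adjustment over 570571 copies, of which 0.0% passed. An unadjusted p under 0.05 was found for 1469 B4 copies (3.55%), against 3.54% of all copies tested. KO and WT libraries did not overlap in 1290 B4 copies (3.12%), against 2.54% of all. The shares with an unadjusted p under 0.05 were 3.79% in RSINE1, 3.64% in ID_B1, 3.58% in B4A and 3.14% in the B4 subfamily, all near the background. The median log2 fold was 0.04 over the B4 copies tested and 0.07 over all copies tested. Neither sign nor order of these medians was stable. They were -0.030 and -0.0025 when scaled on retrotransposon copies alone, -0.027 and 0.0034 in DESeq2, -0.015 and 0.11 without KO M1 and 0.069 and -0.032 without KO M2. Without KO F2, 1733 B4 copies (4.19%) had an unadjusted p under 0.05, against 4.06% of all.

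DESeq2, run as an alternative, called 3 of 2663 B4 copies to which it gave an adjusted p, all higher in KO. Over all copies it called 0.0829%, and 41 of those 42 calls were higher in KO, so that the direction of the B4 calls was that of copies in general. They were named after their values were seen: the ID_B1 copy on chromosome 11 at 51812648 to 51812871 (1.26 ± 0.599 CPM in KO and 0.359 ± 0.154 in WT, DESeq2 adjusted p = 0.0431), the B4A copy on chromosome 14 at 26764681 to 26764967 (1.21 ± 0.297 CPM in KO and 0.441 ± 0.0910 in WT, DESeq2 adjusted p = 0.0476) and the B4A copy on chromosome 2 at 167617482 to 167617770 (1.53 ± 0.193 CPM in KO and 0.617 ± 0.0941 in WT, DESeq2 adjusted p = 0.0431). edgeR gave each of them an adjusted p of 0.839. Coordinates here and below are those of the table, build GRCm39, and genes near them were not analysed here.

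The 5 B4 copies with the lowest p on the side of higher KO values had means of 8.6 to 47.1 counts per library. The median B4 copy tested had 10.6. Picking by lowest p from these same data, here and below, favours features whose KO and WT libraries do not overlap. The filter on low counts can also be passed through the KO libraries alone. Large folds and separated groups are therefore partly built into this list. First came the B4 copy of 204 bp on chromosome 11 at 115074865 to 115075068, 686 bp from the nearest open region. It had 0.330, 0.311, 0.536 and 0.430 CPM in KO F1, F2, M1 and M2 and 0.131, 0.0621, 0.0831 and 0.0927 in WT. The KO libraries all lay above the WT libraries, with a log2 fold of 2.08 ± 0.43 (SE) on a mean of 14.9 counts per library (edgeR adjusted p = 0.839). Next was the ID_B1 copy of 143 bp on chromosome 15 at 36299227 to 36299369, 1628 bp from the nearest open region, with 0.314, 0.294, 0.283 and 0.451 CPM in KO and 0.0980, 0.0466, 0.0831 and 0.0154 in WT. The third was the ID_B1 copy of 209 bp on chromosome 11 at 94572639 to 94572847, 2089 bp from the nearest open region, with 0.204, 0.638, 0.283 and 0.946 CPM in KO and 0.0490, 0.109, 0.166 and 0.0772 in WT. The KO values of this copy were uneven, since KO F2 and KO M2 stood well above KO F1 and KO M1. The remaining ones were the RSINE1 copy of 141 bp on chromosome X at 7965832 to 7965972, 2381 bp from the nearest open region, and the ID_B1 copy of 224 bp on chromosome 11 at 51812648 to 51812871, in an open region. Of these, the last had the most counts, with 0.753, 1.65, 0.744 and 1.89 CPM in KO and 0.261, 0.559, 0.399 and 0.216 in WT on a mean of 47.1 counts. Its KO and WT libraries did not overlap, and KO F2 and KO M2 were again the highest. Both lie in the same set of libraries described above, and the part of that split was not tested.

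On the side of lower KO values the list opened with neighbours. The ID_B1 copy of 217 bp on chromosome 4 at 55525063 to 55525279, 286 bp from the nearest open region, and the ID_B1 copy of 120 bp on chromosome 4 at 55525803 to 55525922, in an open region, lay around the edge of the same open region and are not independent. The former had 0.157, 0.311, 0.149 and 0.150 CPM in KO F1, F2, M1 and M2 and 0.196, 1.52, 1.56 and 0.433 in WT. WT F2 and WT M1 stood far above the other libraries, while WT F1 lay inside the KO range. The latter had 0.141, 0.262, 0.164 and 0.215 CPM in KO and 0.261, 0.807, 1.03 and 0.371 in WT, with the same libraries on top. WT F2 and WT M1 both lie in the set described above that holds KO F2 and KO M2. The part of that split was not tested. Next was the ID_B1 copy of 181 bp on chromosome 8 at 84939948 to 84940128, 1471 bp from the nearest open region, with 0.267, 0.458, 0.417 and 0.387 in KO and 0.376, 1.47, 1.90 and 0.664 in WT, where WT F1 again fell among the KO libraries. The B4A copy of 209 bp on chromosome 11 at 99107104 to 99107312, in an open region, had 0.157, 0.131, 0.179 and 0.0860 in KO and 0.392, 0.481, 0.465 and 0.247 in WT, and the B4 copy of 245 bp on chromosome 16 at 18562519 to 18562763, 3825 bp from the nearest open region, had 0.110, 0.0654, 0.164 and 0.0860 and 0.327, 0.233, 0.399 and 0.309. In these last ones the groups did not overlap, on a mean of 16.6 and 13.1 counts per library. The edgeR adjusted p-values of the 5 copies ran from 0.839 to 1.000.

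The 10 B4 copies of at least 100 bp with the highest mean level, 5.92 down to 4.49 CPM, gave the best counted single copies, and 8 of them lay in an open region. The highest was the B4 copy of 262 bp on chromosome 13 at 24559295 to 24559556, in an open region, with 5.93, 5.02, 6.91 and 3.78 CPM in KO F1, F2, M1 and M2 and 4.54, 6.08, 7.56 and 7.57 in WT. WT M1 and WT M2 were its highest libraries and KO M2 its lowest, and the groups overlapped. Second was the B4A copy of 261 bp on chromosome 5 at 117386583 to 117386843, in an open region, with 6.84, 4.55, 7.44 and 4.19 CPM in KO and 4.72, 4.02, 6.75 and 6.33 in WT. The third, the RSINE1 copy of 178 bp on chromosome 19 at 5888497 to 5888674, 432 bp from the nearest open region, had 3.86, 5.25, 6.85 and 4.45 and 3.79, 5.43, 8.15 and 6.01. By subfamily the list held 5 B4A, 3 B4, 1 RSINE1 and 1 ID_B1 copies. The largest genotype difference among them was in the ID_B1 copy of 223 bp on chromosome 5 at 137093947 to 137094169, 661 bp from the nearest open region, with 4.65, 2.44, 6.21 and 2.79 CPM in KO and 4.87, 4.44, 4.65 and 7.35 in WT, a log2 fold of -0.40 ± 0.26 (SE) at an unadjusted edgeR quasi-likelihood p of 0.136. KO F2 and KO M2 had the lowest values there. In all 10 copies the KO and WT libraries overlapped.

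Open regions give more counts than the copies inside them. All 14660 B4-holding open regions were tested, and none differed between KO and WT in edgeR's quasi-likelihood test with Benjamini-Hochberg adjustment over 185268 open regions, of which 0.0% passed. An unadjusted p under 0.05 was reached by 1356 of them (9.25%), against 9.88% of all open regions, and 903 of the 1356 (66.6%) were higher in KO, where it was 65.1% of all open regions at that p. Without KO M2 the count of B4-holding regions was 679 (4.63%, against 5.20% of all), without WT M1 859 (5.86%, against 6.46% of all), without WT M2 897 (6.12%, against 6.58% of all) and without KO F2 1716 (11.7%, against 12.1% of all). The share of all open regions thus moved with that of B4-holding ones. KO and WT libraries did not overlap in 825 B4-holding regions (5.63%), against 5.98% of all. Among the 4333 regions with B4 as the only repeat, 441 (10.2%) had an unadjusted p under 0.05, close to the 10.5% of regions without any repeat. The median log2 fold was 0.01 over B4-holding regions and 0.00014 over all.

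DESeq2, the alternative tool, gave calls where edgeR gave none. It called 179 of 14324 B4-holding regions (1.25%), against 1.46% of all open regions. Of these calls 157 (1.10% of the regions tested) were higher in KO and 22 lower, where 1.23% of all open regions were called higher and 0.222% lower. These calls rested on single libraries, in B4-holding regions as in all. It called 0 B4-holding regions (35 of all open regions) without KO M2, 2 (22) without WT M2, 4 (93) without WT M1 and 103 (1422) without WT F2. It called 376 (5349) without KO F1, 301 (4061) without WT F1, 225 (2989) without KO F2 and 219 (3059) without KO M1. The fall and the rise of these counts were those of open regions in general. By the subfamily held, DESeq2 called 69 regions with ID_B1, 43 with RSINE1, 46 with B4A and 30 with the B4 subfamily, which is 1.35%, 1.07%, 1.29% and 1.26% of those tested. Each of these shares lay a little below that of all open regions. Of the regions covered by B4 over more than 50% of their length, it called 3 of the 920 tested (0.326%), which is below the background, and in edgeR 5.18% of all 1062 had an unadjusted p under 0.05, also below it. As given above, these regions were short and weakly counted, and the part of that was not tested. No share was tested against the background.

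**Figure D4:**
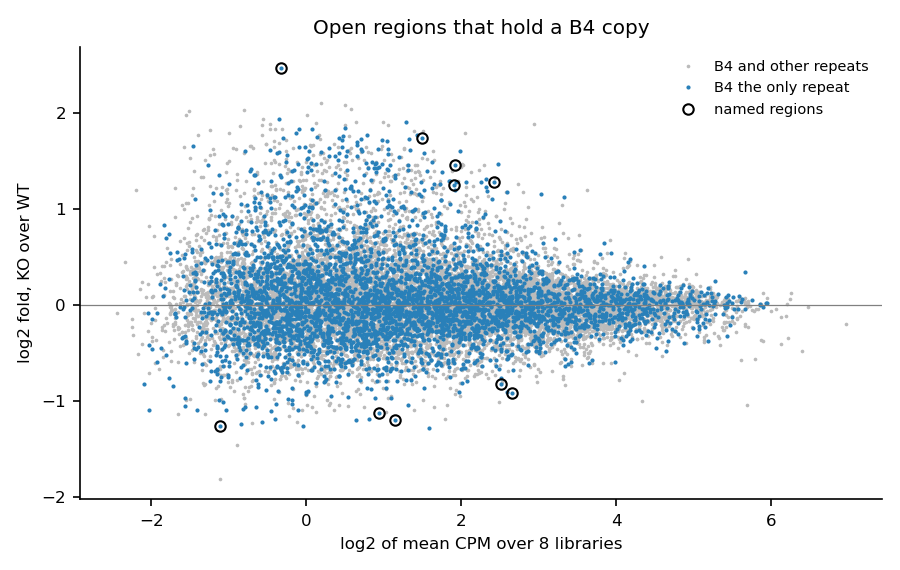
Log2 fold of KO over WT from edgeR against the log2 of the mean CPM over 8 libraries, 1 point for each of the 14660 B4-holding open regions; blue points hold B4 as their only repeat and rings mark the named ones. The cloud is centred near 0, with more points above 1 than below -1 at low to middle levels.

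The B4-only regions with the lowest p showed the same libraries on top again and again. On the side of higher KO values the first was the region of 483 bp on chromosome 10 at 60096406 to 60096888, which holds an ID_B1 copy over 19.5% of its length. It had 6.83, 8.28, 5.27 and 9.76 CPM in KO F1, F2, M1 and M2 and 4.30, 2.91, 2.35 and 2.96 in WT. All KO libraries lay above all WT libraries, and the log2 fold was 1.28 ± 0.25 (SE), with an adjusted p of 0.323 in edgeR and 0.00337 in DESeq2. Second was the region of 337 bp on chromosome 14 at 60994747 to 60995083, which holds a B4A copy over 31.5% of its length. Its values were 0.792, 1.65, 0.765 and 2.15 CPM in KO and 0.384, 0.355, 0.162 and 0.115 in WT, a log2 fold of 2.47 ± 0.51. Next was the region of 389 bp on chromosome 9 at 66021656 to 66022044, which holds an RSINE1 copy over 7.71% of its length, with 5.20, 5.23, 4.84 and 5.60 in KO and 3.75, 2.02, 1.62 and 1.71 in WT. Its KO libraries were close together while WT F1 stood apart from the other WT libraries. Then came the region of 728 bp on chromosome 10 at 93895206 to 93895933, which holds an ID_B1 copy over 29.5% of its length, with 4.89, 5.30, 4.56 and 7.10 and 3.31, 2.04, 1.74 and 1.15. Last was the region of 610 bp on chromosome 8 at 79870314 to 79870923, which holds an ID_B1 copy over 12.1% of its length, with 3.26, 5.04, 2.46 and 6.39 and 2.00, 1.73, 0.790 and 0.923. In all 5 regions KO M2 was the highest library, KO F2 the second and WT F1 the highest of the WT libraries. KO M2 had the smallest share of counts in open regions and the fewest counts. KO F2 is the library that went against its sex label. Both lie in the same set of libraries described above, and WT F1 lies in the other set. The part of these in the differences was not tested.

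On the side of lower KO values the first was the region of 1230 bp on chromosome 15 at 54476075 to 54477304, which holds a B4A copy over 2.28% of its length. It had 3.84, 4.79, 4.20 and 4.48 CPM in KO F1, F2, M1 and M2 and 8.74, 6.62, 8.47 and 9.06 in WT. No KO library reached the lowest WT library, and the log2 fold was -0.92 ± 0.17 (SE), with an adjusted p of 0.323 in edgeR and 0.00179 in DESeq2. The second was the region of 705 bp on chromosome 5 at 140198429 to 140199133, which holds an ID_B1 copy over 14.04% of its length, with 0.839, 1.28, 1.87 and 1.40 CPM in KO and 2.30, 2.73, 3.20 and 4.12 in WT. The third was the region of 302 bp on chromosome 11 at 99107044 to 99107345, which holds a B4A copy over 69.2% of its length, with 0.280, 0.266, 0.267 and 0.251 and 0.767, 0.844, 0.628 and 0.385. This is the region that holds the B4A copy named above among the copies with lower KO values, and its DESeq2 adjusted p was 0.154. Then came the region of 744 bp on chromosome 1 at 63071788 to 63072531, which holds an ID_B1 copy over 1.21% of its length, with 3.54, 4.33, 5.45 and 2.87 and 5.10, 7.15, 8.55 and 8.48, where KO M1 overlapped WT F1. Last was the region of 757 bp on chromosome 19 at 55551244 to 55552000, which holds an ID_B1 copy over 15.6% of its length, with 0.466, 1.24, 1.80 and 1.36 and 1.89, 2.18, 2.57 and 3.81. edgeR gave all 10 regions the same adjusted p of 0.323. In several of them the B4 copy took up a small part of the region, down to 1.21%, so the value is that of the whole region and not of the copy.

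**Figure D5:**
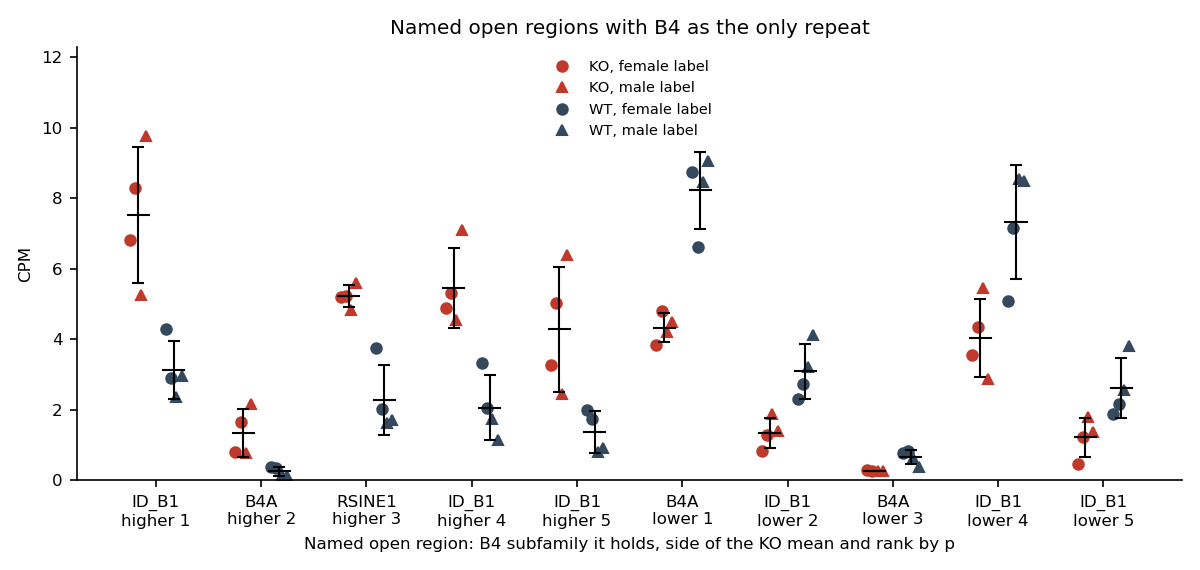
CPM of the 10 named open regions with B4 as their only repeat, labelled by the subfamily held, the side of the KO mean and the rank by p. Points are libraries (red KO, dark blue WT, circles female and triangles male labels) and bars are mean ± SD of 4. KO and WT separate in all but the region labelled lower 4. The regions were chosen by lowest p in these same data, which favours such separation. KO and WT libraries did not overlap in 5.98% of all open regions and in 5.93% of B4-only regions.

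The sex label is the other factor of the design. Summed over all chromosomes, no B4 subfamily differed between male and female labels: the log2 fold of male over female was 0.02 ± 0.05 (SE) for ID_B1, -0.01 ± 0.05 for RSINE1, -0.02 ± 0.06 for the B4 subfamily and -0.03 ± 0.06 for B4A, with edgeR adjusted p from 0.833 to 0.915 (0.0% of all subfamilies passed). Without KO F2 the B4 folds ran from -0.05 to 0.01 (adjusted p from 0.821 to 0.931). The count over all subfamilies rested on 1 library: without KO M2, 215 of 833 subfamilies (25.8%) passed, 201 of them lower in male labels. None was a B4 subfamily, but all 4 B4 folds were then below 0, from -0.07 to -0.0023, with a lowest adjusted p of 0.314. No difference of the genotype effect between the sex labels passed either, with interaction terms of 0.04 to 0.08 on the log2 scale and edgeR adjusted p from 0.854 to 0.908 (0.0% of all passed). Without KO F2 the terms ran from 0.05 to 0.13 (adjusted p from 0.913 to 0.924), where the group of KO female labels has 1 library that is assumed to vary like the others. On the X chromosome the copies did follow the label. Per 100 B4 counts on autosomes, X copies held 2.57, 1.92, 2.49 and 2.36 counts in KO F1, KO F2, WT F1 and WT F2, and 1.68, 1.85, 1.57 and 1.73 in KO M1, KO M2, WT M1 and WT M2. The mean was 2.33 ± 0.289 for female and 1.71 ± 0.119 for male labels (SD, n = 4; two-sided exact permutation p = 0.0286, the smallest that 4 against 4 can give). KO F2 was the lowest female-labelled library, close to KO M2, and without it the female mean was 2.47 ± 0.108 (n = 3, exact permutation p = 0.0286). With any 1 of the male-labelled libraries left out the exact permutation p was 0.0571. X copies were also seldom in open regions, 1.85% against 5.22% on chromosome 11, and 0 of 2923 copies on Y were.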

How the data were processed

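ATAC-seq was analysed in 8 libraries of mouse lung fibroblasts. The submitters' processing notes name Bowtie2, SAMtools, Picard and bedtools, together with Trim Galore, featureCounts and MACS2, and the genome build GRCm39. The deposited values are estimated counts that the authors made with featureCounts 2.0.3 over open regions and repeat annotations together, per the file headers: only the 5′ end of a read was counted, and where several regions held that end, each received an equal part of 1 count. How reads with several equal matches were placed, how open regions were merged across libraries and whether positions were shifted for the transposase are not given in the sources used here. Reads from near-identical copies can therefore be split or misplaced, which makes values of single young copies uncertain.

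The members, the lists and the order of the analysis were chosen with earlier results of these data known. Estimated counts were rounded for every count model. Subfamily sums (mean of at least 100 counts per library), single retrotransposon copies and open regions were tested with edgeR 4.0.16 in R 4.3.3 (robust quasi-likelihood fit, sex label as covariate, Benjamini-Hochberg over all features of a fit, threshold 0.05). For repeats, library size was the table total, with TMM factors from open regions and copies together. For open regions, TMM factors came from open regions alone. Copies and regions were kept by filterByExpr over the 4 groups of genotype and sex label. The same set was used in every fit except the alternatives that required a minimum mean count. DESeq2 1.42.0 was an alternative. It used its own size factors from the tested features alone, so for subfamilies and copies it also changed the scaling. Levels per kb used the table total without TMM. Two-sided exact permutation tests were used for shares over 70 assignments of libraries, whose smallest p is 0.0286, and for paired levels over 256 sign changes. With no positions of genes or genome sequence of the build used, no sequence, motif or gene is reported. Named were the 5 copies and the 5 B4-only regions with the lowest p in each direction and the 10 best counted copies of at least 100 bp, passing over chromosome 18. The models were also run on simulated counts in which libraries varied independently, unlike the sets of libraries described above. That run therefore cannot show how the models behave with such sets. Open-region starts are printed as the table gives them. 0 columns of the table were without a sample.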

Additional observations from a re-analysis of the deposited data

Results flagged for a closer look

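Single libraries stood apart from the other 3 of their genotype in 2 of 108 sets of 4 values examined (the gap to the nearest library over the whole range was above 0.829, the 95% critical value of Dixon's test). Chance gives about 1 in 20 such sets. The ID_B1 copy on chromosome 4 at 55525063 to 55525279 had 0.3108 CPM in KO F2, where the other KO libraries had 0.1488 to 0.157. The ID_B1 copy on chromosome 5 at 137093947 to 137094169 had 7.354 CPM in WT M2, where the other WT libraries had 4.439 to 4.865. The first copy is among those with the lowest p for lower KO values, and its KO F2 value is above the lowest WT value. KO F2 is also the library that went against its sex label.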

How the results depend on the processing

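No B4 subfamily, copy or B4-holding open region passed in edgeR under any alternative run, with or without each library, so the edgeR calls depended on no setting tried. DESeq2 called 3 B4 copies (0.113%, against 0.0829% of all) and 179 B4-holding regions (1.25%, against 1.46% of all). With 1 library left out the latter ran from 0 without KO M2 to 376 (2.63%) without KO F1. Of all open regions it then called 0.0246% and 2.94%. B4 copies at an unadjusted p under 0.05 numbered 318 (4.08%, against 4.15% of all) when a mean of at least 20 counts was required, where fewer copies were tested. With 1 library left out, B4-holding regions at that p numbered 679 (4.63%, against 5.20% of all) without KO M2, the lowest. The highest number was 1774 (12.1%, against 12.3% of all) without WT F1. With the replicate number as a block (replicate block), 0 subfamilies, 0 copies and 0 regions passed. An unadjusted p under 0.05 was then found for 1832 B4 copies (4.43%, against 4.83% of all) and 1719 B4-holding regions (11.7%, against 12.4% of all). The numbers do not pair the samples, since same-numbered libraries had deviations correlated at 0.608 (F1), 0.629 (F2), -0.306 (M1) and -0.466 (M2) over 177277 open regions, where the 2 sets of libraries described above cut across the numbers.

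Directions of uncalled differences were not stable. Scaled on retrotransposon copies alone, the log2 folds of KO over WT were -0.04255 (B4 subfamily), -0.02814 (B4A), -0.03015 (ID_B1) and -0.02312 (RSINE1). DESeq2, with its own scaling on the subfamily sums, gave -0.01368 for the B4 subfamily and -0.001328 for ID_B1. Of the best counted copies, the B4 copy on chromosome 1 turned to -0.04408 in DESeq2, -0.007133 without the sex covariate, -0.04965 with that scaling and -0.09992 to 0.1574 with 1 library left out. The B4A copies on chromosomes 5, 6 and 7 ranged over -0.07685 to 0.2959, -0.2652 to 0.0618 and -0.235 to 0.0107 in the same way. The KO minus WT difference of the B4 share, -0.0897 percentage points of retrotransposon counts, was 0.111 of the table total, 0.1812 of SINE counts and -0.3895 to 0.1267 with 1 library left out, and -0.4668 to 0.1037 outside open regions. Of the distance classes, KO minus WT ranged over -0.04551 to 0.07152 CPM per kb in open regions, -0.001203 to 0.04086 from 2000 bp, -0.005274 to 0.03269 from 10000 bp and -0.004022 to 0.03344 from 50000 bp. The cause of these reversals was not tested. The median tested copy had 10.6 counts per library, which sets the precision of single copies, and 0 copies passed in edgeR also where a mean of at least 20 counts was required.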
